A study of Mus musculus with 20 samples.

Results

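The genes described here are 10 enzymes on the route from tryptophan to the coenzyme NAD in mouse liver, namely Tdo2, Ido2, Afmid, Kmo, Kynu, Haao, Acmsd, Qprt, Nadsyn1 and Nampt. They were picked by gene name from a table of 54532 gene entries, and all 10 were among the 14059 entries with at least 0.5 FPKM in at least 5 libraries. Acmsd was chosen because its level was higher in sham-operated knockout livers than in sham-operated wild-type livers, so its sham values are given as a description with no test. The other 9 were chosen as its pathway neighbours, and the members were chosen with earlier results of these data known. The study measured polyadenylated RNA of whole liver in 20 libraries, in 4 groups of 5, and asked what the loss of STING changes in cholestatic liver. The groups were STING knockout livers after 7 days of bile duct ligation (BDL_KO), wild-type livers after the same ligation (BDL_Wt), STING knockout livers after sham surgery (Sham_KO) and wild-type livers after sham surgery (Sham_Wt). Ligation of the bile duct stops bile from leaving the liver and is a standard model of cholestasis, and STING is the adaptor through which cGAS, a sensor of cytosolic DNA, turns on interferon genes. The strain, sex, age and knockout allele are not given in the sources used here, and mice lacking Abcb4, which the design text names, were not analysed here.

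Hepatocytes break down most dietary tryptophan through the kynurenine pathway. Tdo2 opens the indole ring, Afmid turns formylkynurenine into kynurenine, and Kmo, Kynu and Haao carry it on to an unstable intermediate, aminocarboxymuconate semialdehyde. At this branch point the intermediate either closes by itself to quinolinate, which Qprt turns into a precursor of NAD, or is decarboxylated by Acmsd and so diverted towards oxidation. Nadsyn1 performs the last amidation of newly made NAD, and Nampt starts the separate route that recycles nicotinamide. Liver is a main site of this synthesis from tryptophan, and Acmsd is known as the enzyme that limits how much tryptophan reaches NAD.

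Levels are FPKM, fragments per kilobase of transcript per unit of library size, which can be compared between genes. Differences are those of mean log2(FPKM + 0.5) between groups, with the standard error of the limma fit over 5 libraries a group, a scale on which the changes of low genes come out too small. A gene passed the test when its Benjamini-Hochberg adjusted p, over all 14059 genes, was under 0.05. Each library held 14.9 to 20.9 M assigned fragments, so that a single fragment per kilobase stood for 0.0467 to 0.0734 FPKM, and all 10 genes rested on many fragments. The labels do not tell whether the libraries are of separate animals, and p-values therefore cover only the spread between these libraries. Tmem173, which encodes STING, averaged 1.42 ± 0.762 FPKM in BDL_KO and 3.64 ± 0.861 FPKM in BDL_Wt livers, and 0.743 ± 0.189 FPKM in Sham_KO and 1.71 ± 0.544 FPKM in Sham_Wt livers (SD, n = 5 each). It was lower in the knockout after both surgeries (exact permutation tests, two-sided, p = 0.00794 after ligation and p = 0.0159 after sham surgery), but no knockout library was without it. BDL_KO_2370, at 2.57 FPKM, lay just below the lowest BDL_Wt library, at 2.60 FPKM. The sham groups overlapped, with Sham_KO_2347 at 1.06 FPKM and Sham_Wt_2224 at 0.843 FPKM. BDL_KO_2359 and BDL_KO_2248 stood apart from the other 3 of their group, with summed cholangiocyte markers of 83.0 and 63.0 FPKM against 332 to 561 FPKM and summed stellate cell markers of 10.9 and 4.83 FPKM against 58.1 to 79.1 FPKM. BDL_KO_2248 also carries a title number outside the range of the other knockout libraries, and its Tmem173 level was 0.638 FPKM. Many but not all results that rest on these libraries are given with and without them. The differences of cell type markers and of Cyp1a2 are given only with them. By Xist and Y-linked transcripts, 3 BDL_KO, 2 BDL_Wt, 2 Sham_KO and 3 Sham_Wt libraries were of the Xist type.

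The promoters of Haao and Afmid, which passed the test between ligated knockout and ligated wild-type livers, are shown as examples. That of Nampt, whose difference there was the opposite in sign and did not pass, is shown beside them. Each runs from 250 bases before to 50 bases after the start of the gene in RefSeq (GRCm38.p6), on the strand of the gene, and capitals mark a match to a searched motif. The windows are chr17:83846741-83847040 on the minus strand for Haao, chr11:117825669-117825968 on the plus strand for Afmid and chr12:32820085-32820384 on the plus strand for Nampt.
Haao: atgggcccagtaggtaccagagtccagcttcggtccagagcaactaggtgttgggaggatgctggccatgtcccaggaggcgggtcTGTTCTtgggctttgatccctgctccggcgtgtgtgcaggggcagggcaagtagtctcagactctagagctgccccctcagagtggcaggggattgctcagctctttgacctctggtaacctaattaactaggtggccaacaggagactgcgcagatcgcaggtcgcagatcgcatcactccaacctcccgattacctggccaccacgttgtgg
Afmid: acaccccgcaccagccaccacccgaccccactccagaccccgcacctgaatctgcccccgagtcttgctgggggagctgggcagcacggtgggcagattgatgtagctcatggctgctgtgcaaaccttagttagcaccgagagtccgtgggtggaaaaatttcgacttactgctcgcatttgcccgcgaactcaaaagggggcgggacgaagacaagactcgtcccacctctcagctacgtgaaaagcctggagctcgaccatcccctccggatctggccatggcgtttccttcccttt
Nampt: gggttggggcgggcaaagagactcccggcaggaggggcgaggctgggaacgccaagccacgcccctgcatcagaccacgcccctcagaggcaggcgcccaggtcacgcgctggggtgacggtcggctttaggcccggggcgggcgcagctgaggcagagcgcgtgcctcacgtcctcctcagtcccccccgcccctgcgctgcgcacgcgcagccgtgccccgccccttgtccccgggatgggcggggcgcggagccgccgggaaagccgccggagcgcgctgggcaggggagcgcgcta
RefSeq promoters were found for 8 of the 10 genes, all but Kynu and Ido2. The Nampt promoter had 76.3% G and C with 36 CpG pairs, while the Haao promoter had 58.7% with 10 and the Afmid promoter 59.7% with 18. The median over all promoters was 52.7% with 7 CpG pairs. Motifs were searched on both strands. The glucocorticoid half-site TGTTCT was found in Haao at 164 bases before the start and in Kmo at 14 bases after it, and 19.0% of all 32851 promoters hold it. The E-box CACGTG, the HNF4 motif CAAAGTCCA, the interferon element TTCNNTTTC and the NF-kB motif GGACTTTCC were in none of these 3 windows, and in 7.15%, 0.475%, 8.56% and 0.344% of all promoters, in this order. The HNF1 motif GTTAATNAT was also in none of them, and in 0.801% of all promoters. A match or its lack describes these letters only.

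In all 4 groups Haao and Tdo2 were the most abundant of the 10 transcripts, and the order lower down differed between groups mainly through Acmsd and Nampt. In BDL_KO livers the order was Haao at 290 ± 99.0, Tdo2 at 262 ± 215, Qprt at 88.8 ± 13.7, Kmo at 56.1 ± 6.19, Nampt at 26.7 ± 18.7, Kynu at 25.6 ± 6.50, Acmsd at 24.5 ± 6.48, Ido2 at 20.2 ± 7.46, Afmid at 10.5 ± 5.58 and Nadsyn1 at 7.29 ± 0.731 FPKM (SD, n = 5). Only Qprt and Kmo, of all neighbours in that order, had ranges that did not overlap. In BDL_Wt livers Acmsd came eighth, at 11.8 ± 1.02 FPKM, with a range overlapping that of Ido2 at 12.9 ± 2.91 FPKM and above that of Nadsyn1 at 6.33 ± 0.556 FPKM. Sham_KO livers had Acmsd in the seventh place at 16.5 ± 5.53 FPKM, overlapping Afmid at 14.1 ± 2.33 FPKM. In Sham_Wt livers Acmsd was the lowest of the 10, at 5.42 ± 1.35 FPKM, with all 5 libraries below those of Nadsyn1 at 7.98 ± 0.824 FPKM.

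**Figure D1:**
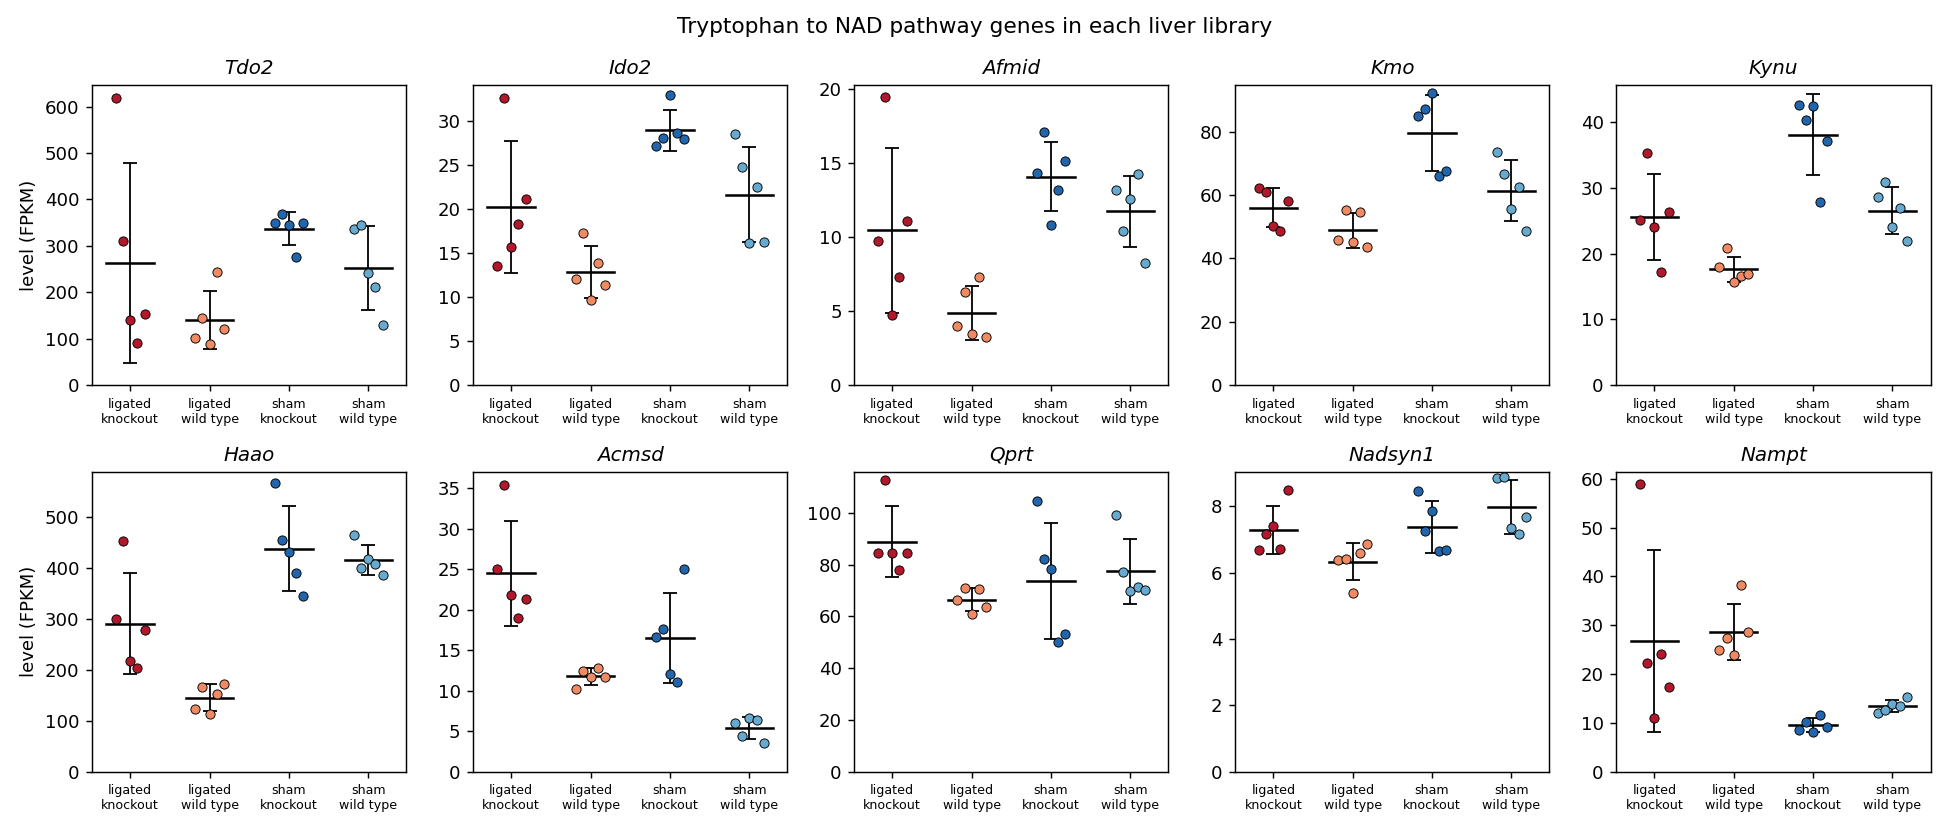
Levels of the 10 genes in every library (points, FPKM on the vertical axes, which start at 0), with the group mean (line) and SD (bars) of 5 libraries for ligated knockout, ligated wild-type, sham knockout and sham wild-type livers. Acmsd sits at 19.0 to 35.5 FPKM in ligated knockout livers, above all 5 ligated wild-type livers at 10.2 to 12.8 FPKM, and the highest Tdo2 and Nampt points are both BDL_KO_2248.

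Knockout against wild type after ligation changed 3 of the 10 genes, all upwards: Acmsd, Haao and Afmid. Over all genes tested, 8.83% passed in this comparison, 3.46% higher and 5.37% lower, and 24.6% had an unadjusted p under 0.05. The median difference of the 10 genes was 0.55, beside 0.01 over all genes, with 9 positive differences and 1 negative, and Kmo and Nadsyn1 turned negative under TPM and total fragments, as did Kmo under quantile normalization. Ranges of the groups did not overlap for Acmsd, Haao and Qprt, and 5.5% of all genes had such ranges. Voom on fragments recovered from the FPKM values called 4 genes, those 3 and Kynu. Without BDL_KO_2359 and BDL_KO_2248 the called genes were Acmsd and Haao, which were higher, and Nampt, which was lower.

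Ligation against sham surgery lowered most of the genes that passed in both genotypes on the deposited scale, while under TPM 2 were lower and 1 higher in wild type, and 1 was lower and 2 were higher in knockout. In wild-type livers 6 of the 9 genes other than Acmsd passed, with Haao, Afmid, Ido2, Kynu and Nadsyn1 lower and Nampt higher, where 35.6% of all genes passed (18.1% higher and 17.5% lower). Their median difference was -0.58, beside -0.02 over all genes, and 5 of the 9 had ranges that did not overlap, as did 31.8% of all genes. In knockout livers 5 of the 9 passed, with Haao, Kynu, Ido2 and Kmo lower and Nampt higher, where 25.1% of all genes passed (12.3% higher and 12.9% lower). The median difference there was -0.54, beside -0.01 over all genes, and 1 of the 9, Kmo, had ranges that did not overlap, against 11.6% of all genes. Without BDL_KO_2359 and BDL_KO_2248 the ranges of 5 of the 9 did not overlap, and those of 33.3% of all genes did not either. With those libraries left out of the fit, Tdo2 and Afmid also passed as lower, giving 6 lower, and Nampt passed as higher.

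Knockout against wild type after sham surgery gave no call among the 9 genes other than Acmsd in the limma test, where 2.97% of all genes passed (1.31% higher and 1.66% lower). At an unadjusted p under 0.05 there were 3 of 9, beside 17.4% of all genes, and voom called 0. Differences ran from -0.48 to 0.51, with a median of 0.26 beside 0.01 over all genes. Only Nampt had ranges that did not overlap, as did 8.07% of all genes. The interaction, which asks whether the response to ligation differed between genotypes, gave no call among the 9 in the limma test, where 0.377% of all genes passed (0.156% higher and 0.22% lower). At an unadjusted p under 0.05 there were again 3 of 9, beside 12.6% of all genes, and voom called 0. Haao had the largest interaction, at 0.89 ± 0.27 (adjusted p = 0.164). The comparisons share groups of libraries, so their values are not independent of each other.

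**Figure D2:**
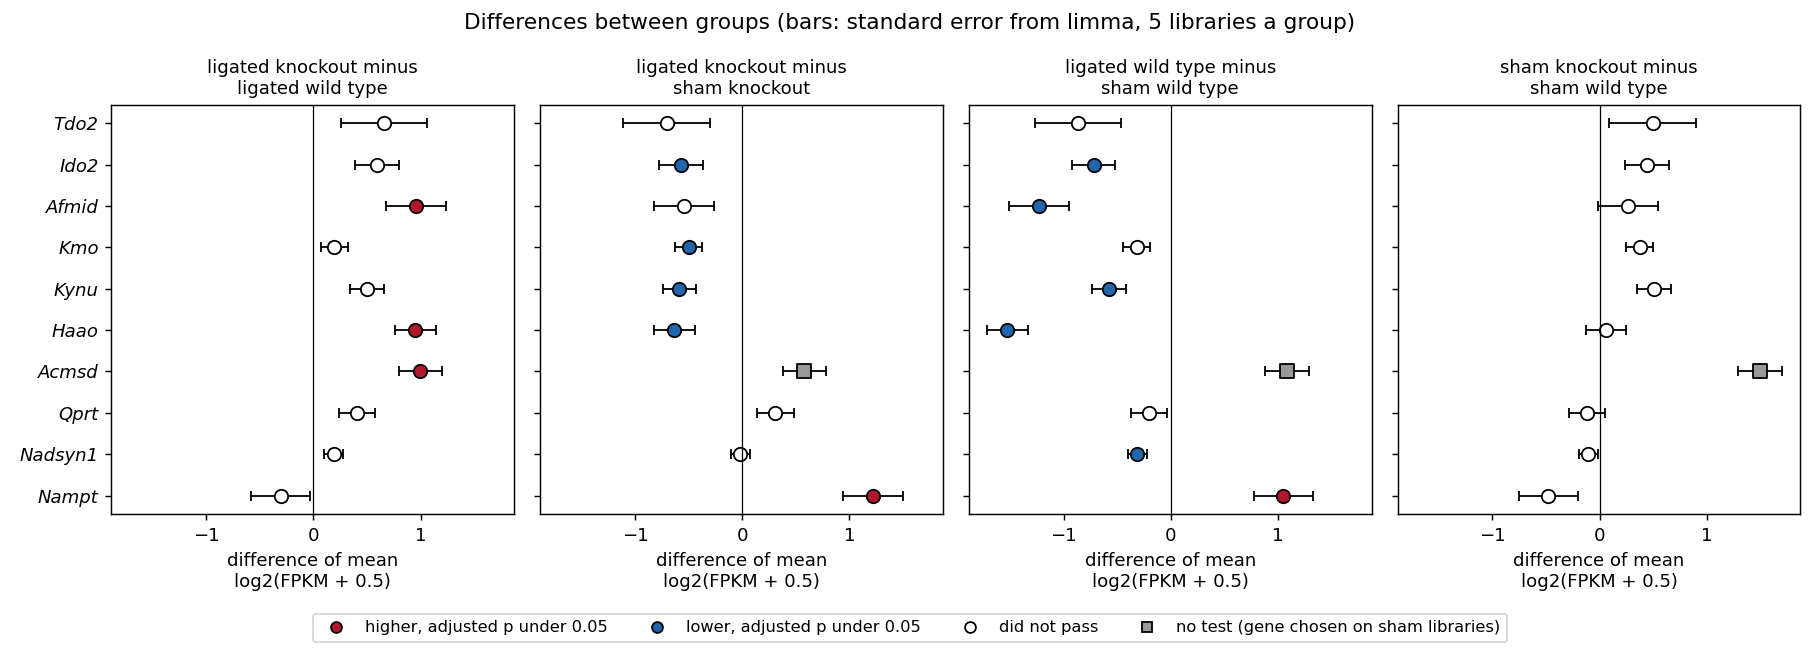
Differences of mean log2(FPKM + 0.5) with standard errors from limma (horizontal axes, 5 libraries a group) for the 10 genes in 4 comparisons, with genes past the adjusted threshold in colour and Acmsd as a grey square where it was not tested. After ligation the knockout shows Acmsd at 1.00, Haao at 0.95 and Afmid at 0.96, while both ligation panels show most genes left of 0 and Nampt at 1.05 in wild type and 1.22 in knockout.

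Acmsd (ENSMUSG00000026348, chromosome 1, 127729413 to 127767978 on the plus strand of GRCm38) draws the pathway away from NAD. It was higher in knockout than in wild-type livers after ligation. The rule of its choice used sham libraries only, but these libraries enter the test through the spread that all 4 groups share. With only the 2 ligated groups in the fit Acmsd still passed. It measured 35.5, 21.9, 25.1, 19.0 and 21.3 FPKM in BDL_KO_2359, BDL_KO_2365, BDL_KO_2248, BDL_KO_2370 and BDL_KO_2371 (the order kept below), against 10.2, 12.5, 11.7, 12.8 and 11.8 FPKM in the 5 BDL_Wt libraries. Every ligated knockout library lay above every ligated wild-type library. The difference was 1.00 ± 0.20, or 2.00-fold (limma, adjusted p = 0.0048, higher in 5 of 5 libraries). Without BDL_KO_2359 and BDL_KO_2248 it was 0.79 (adjusted p = 0.0381). Within libraries with Y-linked transcripts, 2 against 3, it was 1.25 (adjusted p = 0.0334), and within those with Xist, 3 against 2, it was 0.79 (adjusted p = 0.589). Of its exonic bases, 94 of 2831 (3.32%) are shared with 2900009J06Rik on the opposite strand, so a small part of its level is uncertain.

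Acmsd in sham livers, the basis of its choice, stood at 16.7, 17.7, 12.1, 11.1 and 25.0 FPKM in the Sham_KO libraries, against 6.04, 4.45, 6.63, 6.43 and 3.55 FPKM in the Sham_Wt libraries. The lowest Sham_KO library, at 11.1 FPKM, was above the highest Sham_Wt library, at 6.63 FPKM, and the difference was 1.50 ± 0.20. Ligation values share those sham libraries and were not tested either. The difference between BDL_KO and Sham_KO livers was 0.58 ± 0.20, with overlapping ranges, and that between BDL_Wt and Sham_Wt livers was 1.08 ± 0.20, with all 5 ligated livers above all 5 sham livers. Acmsd and Nampt had positive differences with ligation in both genotypes under the deposited scale, TPM, total fragments and quantile normalization, and Qprt under TPM and quantile normalization only.

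Acmsd was also set against Qprt, which acts on quinolinate, the product formed on the NAD side of the branch. These enzymes act on different compounds, so the ratio of their RNA levels does not measure the balance at the branch point. The Acmsd level was 24.4 to 31.4% of the Qprt level in BDL_KO livers (median 25.9%), against 15.3 to 19.1% in BDL_Wt livers (median 18.2%). These ranges did not overlap, and on the log2 scale the difference of Acmsd minus Qprt between the groups was 0.59 (exact permutation test, two-sided, p = 0.00794, n = 5 each, the smallest p that 5 against 5 can give). Without BDL_KO_2359 and BDL_KO_2248 it was 0.48 (exact permutation p = 0.0357). In Sham_KO livers the share was 15.4 to 47.1% (median 21.5%), against 5.06 to 9.52% in Sham_Wt livers (median 6.09%), given with no test. Set against Haao, the enzyme just upstream, Acmsd was at 7.65 to 10.1% in BDL_KO and 6.83 to 10.4% in BDL_Wt livers, ranges that overlapped almost fully. In Sham_KO livers it was at 2.81 to 7.26% of Haao, against 0.919 to 1.59% in Sham_Wt livers.

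**Figure D3:**
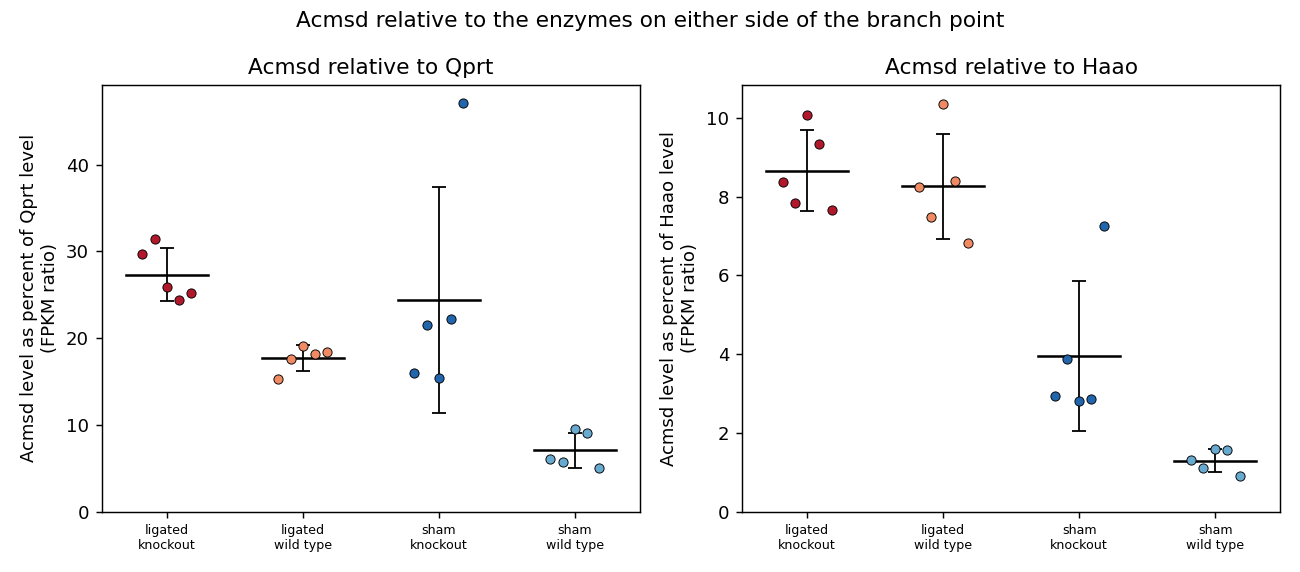
Acmsd level as a percent of the Qprt level (left) and of the Haao level (right) in every library, with group means (lines) and SD (bars) of 5 libraries, vertical axes starting at 0. Against Qprt the ligated knockout livers, at 24.4 to 31.4%, lie above the ligated wild-type livers, at 15.3 to 19.1%, and against Haao these 2 groups lie at the same height.

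Among the opening enzymes, Tdo2 (tryptophan dioxygenase, chromosome 3, 81957090 to 81976202, minus strand) varied most between libraries of 1 group. It measured 310, 139, 618, 90.4 and 153 FPKM in the BDL_KO libraries, against 102, 144, 87.4, 244 and 120 FPKM in the BDL_Wt libraries. BDL_KO_2248 and BDL_KO_2359 were the only ligated livers above the highest ligated wild-type value. The genotype difference after ligation was 0.66 ± 0.40 (adjusted p = 0.340) and was -0.07 without those libraries. In sham livers Tdo2 stood at 277 to 368 FPKM in knockout and 129 to 344 FPKM in wild type. The ligation difference in knockout livers was -0.70 ± 0.40 (adjusted p = 0.216), and without BDL_KO_2248 and BDL_KO_2359 it passed the test at -1.43 (adjusted p = 0.0021), as it did without BDL_KO_2248 alone at -1.10 (adjusted p = 0.0214). In wild-type livers it was -0.87 ± 0.40 (adjusted p = 0.104), and it passed without BDL_Wt_2237 at -1.09 (adjusted p = 0.0483).

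Ido2, a second indole-opening dioxygenase with low activity towards tryptophan (chromosome 8, 24531892 to 24576333, minus strand), was lower after ligation in both genotypes on the deposited scale. It averaged 12.9 ± 2.91 FPKM in BDL_Wt and 21.6 ± 5.40 FPKM in Sham_Wt livers, a difference of -0.72 ± 0.20 (adjusted p = 0.00941, SD, n = 5 each). In BDL_KO livers it averaged 20.2 ± 7.46 FPKM and in Sham_KO livers 29.0 ± 2.30 FPKM, a difference of -0.57 ± 0.20 that just passed (adjusted p = 0.0467) and failed when any of 14 of the 20 libraries was left out, with adjusted p up to 0.112. Neither passed under TPM, at -0.41 in wild type (adjusted p = 0.145) and -0.40 in knockout (adjusted p = 0.217), or scaled to total fragments (adjusted p = 0.0572 in wild type and 0.0968 in knockout). The knockout call was also lost with no filter, under quantile normalization and with only its 2 groups in the fit. It was lost too with library type as covariate and within either library type, and the wild-type call was lost within Xist libraries. The knockout difference after ligation was 0.59 ± 0.20 (adjusted p = 0.0721). It passed without BDL_Wt_2235 (adjusted p = 0.0455), BDL_KO_2365 (adjusted p = 0.0481) or BDL_KO_2248 (adjusted p = 0.0351).

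Afmid (arylformamidase, chromosome 11, 117825924 to 117839908, plus strand) showed 19.5, 4.75, 9.75, 7.30 and 11.1 FPKM in the BDL_KO libraries, against 4.01, 6.31, 3.48, 7.32 and 3.21 FPKM in the BDL_Wt libraries. The 2 groups overlapped, with BDL_KO_2359 far above the others. The difference was 0.96 ± 0.28 (limma, adjusted p = 0.0389). The call was lost, with adjusted p up to 0.119, when BDL_Wt_2233, BDL_Wt_2236, BDL_Wt_2240, BDL_KO_2359, BDL_KO_2248 or BDL_KO_2371 was left out, and without both BDL_KO_2359 and BDL_KO_2248 the difference was 0.60 (adjusted p = 0.201). It was also lost under TPM (adjusted p = 0.0703), total fragments (0.0542), no filter (0.0778), array weights (0.127), with only the 2 ligated groups in the fit (0.168) and within either library type. Ligation against sham surgery lowered Afmid in wild-type livers, to 4.87 ± 1.84 FPKM in BDL_Wt against 11.7 ± 2.41 FPKM in Sham_Wt livers (SD, n = 5 each), a difference of -1.23 ± 0.28 (adjusted p = 0.00203) and with no overlap. The ligation difference in knockout livers was -0.54 ± 0.28 (adjusted p = 0.167), and it passed without BDL_KO_2359 at -0.79 (adjusted p = 0.0223). Of the 3539 exonic bases of Afmid, 1566 (44.2%) are shared with the gene model Gm20708 on the same strand, so its level is uncertain.

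In the middle of the pathway, Haao (3-hydroxyanthranilate dioxygenase, chromosome 17, 83831156 to 83847963, minus strand), which makes the branch-point intermediate, had the largest decrease with ligation among the 9 genes in wild-type livers and was higher in ligated knockout than in ligated wild-type livers. It measured 452, 217, 299, 203 and 278 FPKM in the BDL_KO libraries, against 123, 167, 113, 153 and 172 FPKM in the BDL_Wt libraries. All 5 ligated knockout libraries lay above all 5 ligated wild-type libraries. The difference was 0.95 ± 0.19, or 1.93-fold (limma, adjusted p = 0.00383). It was 0.68 without BDL_KO_2359 and BDL_KO_2248 (adjusted p = 0.0208), 1.24 within libraries with Y-linked transcripts (adjusted p = 0.0836) and 0.66 within those with Xist (adjusted p = 0.366). With only the 2 ligated groups in the fit the adjusted p was 0.0606.

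Sham livers held Haao at 566, 455, 430, 389 and 345 FPKM in knockout and at 463, 399, 418, 408 and 386 FPKM in wild type. The sham genotypes overlapped, with a difference of 0.06 ± 0.19 (adjusted p = 0.917) that was -0.09 under TPM, -0.02 when scaled to total fragments and -0.06 under quantile normalization. Ligation lowered Haao in wild-type livers, a difference of -1.52 ± 0.19 (adjusted p = 9.19e-06), and every ligated library lay below every sham library. In knockout livers the ligation difference was -0.63 ± 0.19 (adjusted p = 0.0203) with overlapping ranges, and that call was lost without Sham_KO_2347 (adjusted p = 0.0591), BDL_KO_2365 (adjusted p = 0.0577) or BDL_KO_2370 (adjusted p = 0.0635). It was also lost with only its 2 groups in the fit and within either library type.

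Kynu (kynureninase, chromosome 2, 43555329 to 43682715, plus strand) was lower after ligation in both genotypes on the deposited scale. It measured 35.4, 24.1, 25.1, 17.2 and 26.3 FPKM in the BDL_KO libraries, against 42.7, 40.3, 42.5, 27.9 and 37.2 FPKM in the Sham_KO libraries, a difference of -0.58 ± 0.16 (adjusted p = 0.0105). In BDL_Wt libraries it measured 17.9, 20.8, 15.8, 16.6 and 16.9 FPKM, against 28.6, 30.9, 24.1, 27.0 and 22.0 FPKM in Sham_Wt libraries, a difference of -0.58 ± 0.16 (adjusted p = 0.00715) with no overlap. Under TPM neither passed, at -0.41 in knockout (adjusted p = 0.0546) and -0.26 in wild type (adjusted p = 0.162), nor did the knockout with only its 2 groups in the fit (adjusted p = 0.0680). Within each surgery the knockout libraries were mostly the higher ones. The knockout difference was 0.50 ± 0.16 after ligation (adjusted p = 0.0516) and 0.51 ± 0.16 after sham surgery (adjusted p = 0.0871), both short of the threshold. The difference after ligation passed without Sham_KO_2352, BDL_Wt_2235 or BDL_KO_2370, and the sham difference without Sham_KO_2352 or BDL_KO_2359 or BDL_KO_2370.

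Kmo (kynurenine monooxygenase, chromosome 1, 175620381 to 175662116, plus strand) was lower after ligation in knockout livers, at 56.1 ± 6.19 FPKM in BDL_KO and 79.7 ± 12.0 FPKM in Sham_KO livers (SD, n = 5 each), a difference of -0.50 ± 0.13 (adjusted p = 0.00839) with no overlap, which did not pass under TPM (adjusted p = 0.0724) or quantile normalization (adjusted p = 0.0623). In BDL_Wt livers it averaged 48.9 ± 5.58 FPKM and in Sham_Wt livers 61.4 ± 9.61 FPKM, a difference of -0.32 ± 0.13 (adjusted p = 0.0587) that was 0.00374 under TPM and that passed without Sham_Wt_2229, BDL_Wt_2235 or BDL_Wt_2237. The interaction of -0.18 ± 0.18 did not pass (adjusted p = 0.745), so a difference between the genotypes in this response was not shown. The knockout difference was 0.37 ± 0.13 after sham surgery (adjusted p = 0.122) and 0.20 ± 0.13 after ligation (adjusted p = 0.370), and the difference after ligation turned to -0.09 under TPM.

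On the NAD side of the branch, Qprt (quinolinate phosphoribosyltransferase, chromosome 7, 127107114 to 127122226, minus strand) did not pass in any comparison of the fit of all 20 libraries. It measured 113, 84.6, 84.3, 77.9 and 84.6 FPKM in the BDL_KO libraries, against 66.4, 71.0, 61.0, 70.5 and 63.8 FPKM in the BDL_Wt libraries. These ranges did not overlap, yet the difference of 0.40 ± 0.17 did not pass when adjusted over all genes (adjusted p = 0.141). With library type as a covariate it passed. In sham livers it stood at 50.1 to 105 FPKM in knockout and 69.7 to 99.3 FPKM in wild type. Its ligation difference was 0.31 ± 0.17 in knockout livers (adjusted p = 0.187) and -0.21 ± 0.17 in wild-type livers (adjusted p = 0.366), with the wild-type difference positive at 0.12 under TPM and 0.18 under quantile normalization. In knockout livers it passed under TPM (adjusted p = 0.0179), under quantile normalization (adjusted p = 0.00384), without Sham_KO_2347 and within Xist libraries.

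Nadsyn1 (NAD synthetase, chromosome 7, 143795584 to 143822849, minus strand) had the narrowest range of the 10 genes. It averaged 6.33 ± 0.556 FPKM in BDL_Wt and 7.98 ± 0.824 FPKM in Sham_Wt livers (SD, n = 5 each), and was lower after ligation, with a difference of -0.31 ± 0.09 (adjusted p = 0.0110) and no overlap. It did not pass under TPM, at -0.01 (adjusted p = 0.970), or scaled to total fragments, at -0.13 (adjusted p = 0.449). In knockout livers it averaged 7.29 ± 0.731 FPKM after ligation and 7.38 ± 0.778 FPKM after sham surgery, a difference of -0.02 ± 0.09 (adjusted p = 0.920) whose sign depended on the scaling. The knockout difference was 0.19 ± 0.09 after ligation (adjusted p = 0.203), turning to -0.08 under TPM, and -0.11 ± 0.09 after sham surgery (adjusted p = 0.588).

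Nampt (nicotinamide phosphoribosyltransferase, chromosome 12, 32819545 to 32853349, plus strand), the first enzyme of NAD recycling, moved with ligation in the direction opposite to the enzymes of synthesis from tryptophan that passed. It measured 24.9, 27.4, 24.0, 38.2 and 28.7 FPKM in BDL_Wt libraries, against 12.0, 12.7, 13.8, 13.5 and 15.3 FPKM in Sham_Wt libraries. All ligated wild-type livers lay above all sham wild-type livers, and the difference was 1.05 ± 0.28 (adjusted p = 0.00627). In the BDL_KO libraries it measured 22.3, 10.9, 58.9, 24.2 and 17.4 FPKM, against 8.55, 10.3, 8.22, 11.6 and 9.08 FPKM in the Sham_KO libraries, a difference of 1.22 ± 0.28 (adjusted p = 0.00387). Ligated knockout livers spread widely, with BDL_KO_2248 highest and BDL_KO_2365 inside the sham range. Without BDL_KO_2359 and BDL_KO_2248 the mean of the ligated knockout was 17.5 FPKM in place of 26.7 FPKM, and Nampt still passed as higher. The knockout call was lost within either library type, and the wild-type call was lost within Xist libraries.

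Between genotypes Nampt differed by -0.30 ± 0.28 after ligation (adjusted p = 0.551). Without BDL_KO_2248 the knockout was lower, with a difference of -0.64 (adjusted p = 0.0379), and without BDL_KO_2359 and BDL_KO_2248 the difference was -0.74 (adjusted p = 0.0296). After sham surgery all 5 knockout livers, at 8.22 to 11.6 FPKM, lay below all 5 wild-type livers, at 12.0 to 15.3 FPKM. That difference of -0.48 ± 0.28 did not pass in the fit of all 4 groups (adjusted p = 0.392), whose shared spread includes the ligated livers, and passed with only the 2 sham groups in the fit (adjusted p = 0.0248).

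Markers of cell types moved with these comparisons. Summed over 6 hepatocyte markers, levels were 29878 to 52806 FPKM in BDL_KO (median 33285), 21031 to 30863 in BDL_Wt (median 27467), 50493 to 65032 in Sham_KO (median 59537) and 46305 to 58780 FPKM in Sham_Wt livers (median 50523), and all 6 were expressed in every group. Alb made up most of the mean sum in each group. Between ligated knockout and ligated wild type the median difference of the 6 was 0.88. That of Acmsd was 1.00, of Haao 0.95 and of Afmid 0.96. Of the 6, 3 were called higher, namely Ttr (1.11), Ass1 (1.10) and Cps1 (0.77). Serpina1e (1.00, adjusted p = 0.555), Alb (0.46, adjusted p = 0.112) and Apoa1 (0.26, adjusted p = 0.591) did not pass the limma test. Of all genes, 3.46% were called higher there. Hepatocytes are the cells known to express most of these enzymes, and whether the hepatocyte share accounts for any difference was not tested. In bulk liver RNA, fewer hepatocytes and less RNA per hepatocyte cannot be told apart. In BDL_KO_2359 and BDL_KO_2248 the hepatocyte sums were 43094 and 52806 FPKM, against 29878 to 33285 FPKM in the other 3, and Tdo2 was highest in the same pair.
Over 6 cholangiocyte markers the sums were 63.0 to 561 FPKM in BDL_KO, 223 to 610 in BDL_Wt, 26.2 to 32.2 in Sham_KO and 19.9 to 26.7 FPKM in Sham_Wt livers, and 2 of the 6 averaged under 0.5 FPKM in both sham groups. Sums over 8 monocyte and macrophage markers were 37.9 to 257 FPKM in BDL_KO, 194 to 260 in BDL_Wt, 59.7 to 113 in Sham_KO and 44.4 to 92.5 FPKM in Sham_Wt livers, with 5 of the 8 averaging under 0.5 FPKM in both sham groups. Their part in the differences of Nampt, which immune cells also express, was not tested.

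Of 11 other enzymes of tryptophan breakdown, 8 were above the filter. Over all genes, 35.6% passed for ligation in wild type and 25.1% for ligation in knockout. Between genotypes 8.83% passed after ligation and 2.97% after sham surgery. At an unadjusted p under 0.05 the genotype shares were 24.6% after ligation and 17.4% after sham surgery. Counts in this and the following lists stand beside these shares. After ligation 3 were higher and none lower in the knockout: Kyat1, a kynurenine aminotransferase, at 28.3 ± 12.0 FPKM in BDL_KO and 11.6 ± 3.00 FPKM in BDL_Wt livers (difference 1.18 ± 0.25, adjusted p = 0.0062), Aldh8a1, the dehydrogenase that follows Acmsd, at 65.7 ± 15.2 FPKM in BDL_KO and 41.4 ± 8.48 FPKM in BDL_Wt livers (0.65 ± 0.14, adjusted p = 0.00778), and Got2, a mitochondrial aspartate aminotransferase (0.54 ± 0.15, adjusted p = 0.0297). Aldh8a1 and Acmsd, successive enzymes on the oxidative side of the branch, were thus both called higher in the ligated knockout. Without BDL_KO_2359 and BDL_KO_2248 none of these 3 passed the limma test, with differences of 0.78 for Kyat1 (adjusted p = 0.0516), 0.42 for Aldh8a1 (adjusted p = 0.0567) and 0.38 for Got2 (adjusted p = 0.166), and under TPM Got2 did not pass (adjusted p = 0.126). Ligation in wild-type livers lowered 6 of the 8, or 4 under TPM, and raised none, led by Kyat1 (-2.01), Gcdh (-0.99), Aldh8a1 (-0.96) and Ddc (-0.83). Ligation in knockout livers lowered 4, namely Kyat1 (-0.82), Ddc (-0.72), Gcdh (-0.72) and Aadat (-0.70). The median difference of the 8 was 0.53 between ligated knockout and ligated wild type, -0.79 for ligation in wild type and -0.55 for ligation in knockout. After sham surgery none passed the limma test or voom between genotypes, also at an unadjusted p under 0.05.

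Of 11 genes of NAD recycling, the nicotinate route and NAD phosphorylation, 8 were above the filter. Among all genes, 8.83% passed between ligated genotypes, and ligation lowered 17.5% in wild type and 12.9% in knockout. Naprt, which starts NAD synthesis from nicotinate, was higher in the ligated knockout, at 53.5 ± 12.6 FPKM in BDL_KO and 37.8 ± 3.55 FPKM in BDL_Wt livers (0.47 ± 0.13, adjusted p = 0.0303), and was the only one called there. Naprt did not pass under TPM (adjusted p = 0.201) or without BDL_KO_2359 and BDL_KO_2248 (adjusted p = 0.182). In wild-type livers ligation lowered 3, Nadk2 (-0.83), Nmnat1 (-0.63) and Naprt (-0.62), and in knockout livers 2, Nmnat1 (-0.57) and Nadk2 (-0.44). Under TPM Nadk2 and Naprt passed in wild type, and none of the list in knockout. Between sham genotypes none passed the limma test or voom, with 4 at an unadjusted p under 0.05, beside 17.4% of all genes. Nnt, the mitochondrial transhydrogenase, was at 0.0157 to 0.171 FPKM in all 20 libraries.

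Of 23 genes that use NAD or clear nicotinamide, 21 were above the filter. Among all genes, 5.37% were lower in the knockout after ligation and 1.66% after sham surgery. Ligation raised 18.1% and lowered 17.5% of all genes in wild type, and raised 12.3% and lowered 12.9% in knockout. After ligation 6 were lower in the knockout and none higher, all ADP-ribosyltransferases of the PARP family. Parp14 stood at 6.11 ± 2.05 FPKM in BDL_KO and 22.9 ± 6.58 FPKM in BDL_Wt livers (-1.83 ± 0.22), followed by Parp12 (-1.38), Parp9 (-1.28) and Parp10 (-0.97), which are known as interferon-induced genes. After sham surgery 4 were lower in the knockout, Parp12 (-1.02), Parp14 (-0.95), Parp10 (-0.81) and Parp3 (-0.53), of which Parp14 and Parp3 did not pass under TPM. Ligation in wild-type livers raised 7, led by Parp14 (1.17) and Parp12 (1.00), and lowered 4, among them Sirt3 (-0.85), a mitochondrial deacylase. Ligation in knockout livers raised Parp12 (0.65), Parp3 (0.54) and Cd38 (0.47) and lowered Nudt12 (-0.44) and Sirt4 (-0.40). The median over the list was 0.01 in the ligated knockout, as over all genes. Without BDL_KO_2359 and BDL_KO_2248, 5 were called lower there, and under TPM 7.

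**Figure D4:**
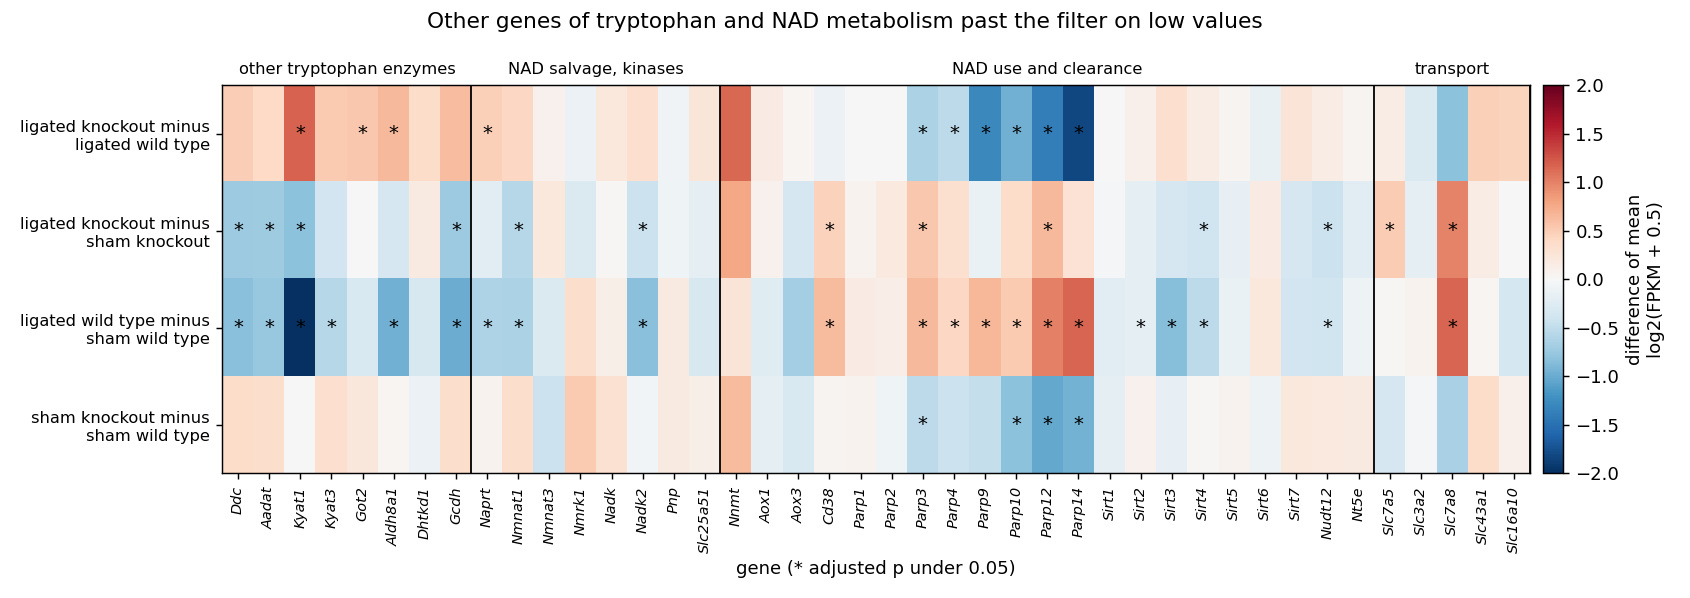
Differences of mean log2(FPKM + 0.5) (colour, red higher and blue lower in the group named first) for the other genes of tryptophan and NAD metabolism that were above the filter, in 4 comparisons, with an asterisk at an adjusted p under 0.05. In the top row, ligated knockout against ligated wild type, Kyat1, Got2, Aldh8a1 and Naprt are higher and 6 PARP genes are lower.

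Among 6 carriers of tryptophan, 5 were above the filter. Ligation raised 18.1% of all genes in wild type and 12.3% in knockout. Between genotypes, 24.6% of all genes had an unadjusted p under 0.05 after ligation and 17.4% after sham surgery. Ligation raised Slc7a8 in wild-type (1.16) and knockout livers (0.99), and Slc7a5 in knockout livers (0.51). Between genotypes none passed the limma test, with 1 at an unadjusted p under 0.05 after ligation and 2 after sham surgery, while voom called 1 lower after ligation. Both carriers move large neutral amino acids.

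Genes known to act on these enzymes or to respond to their products were counted in the same way. Ligation raised 18.1% and lowered 17.5% of all genes in wild type, and raised 12.3% and lowered 12.9% in knockout. Between ligated genotypes 8.83% of all genes passed. Of 10 liver transcription factors and receptors, ligation lowered 5 and raised none in wild type, among them Ppara (-1.07), Cebpa (-0.93) and Foxa2 (-0.81), with 2 lower and 1 higher under TPM, and lowered 4 and raised 1, Ahr (0.84), in knockout. None passed the limma test or voom between genotypes. At an unadjusted p under 0.05 there were 2 after ligation, beside 24.6% of all genes, and 3 after sham surgery, beside 17.4%. Of 6 targets of the aryl hydrocarbon receptor, which binds kynurenine, 3 were above the filter. Among these, Cyp1a2 was higher in the ligated knockout, at 195 ± 156 FPKM in BDL_KO and 53.7 ± 26.5 FPKM in BDL_Wt livers (1.63 ± 0.44, adjusted p = 0.0256, and 0.0555 under TPM). With ligation Cyp1a2 fell and Tiparp rose in wild type (-2.79 and 0.78), and in knockout Cyp1a2 fell (-1.46, adjusted p = 0.0511 under TPM) while Nqo1 (1.23) and Tiparp (0.82) rose. None of the 3 passed between sham genotypes in the limma test or voom, also at an unadjusted p under 0.05.
Of 12 fasting and PPARalpha target genes, ligation lowered 6 in wild type and 8 in knockout and raised none. Among all genes, 35.6% passed for ligation in wild type (17.5% lower) and 25.1% for ligation in knockout (12.9% lower). Between genotypes 8.83% of all genes passed after ligation and 2.97% after sham surgery. Acot1 was higher in the sham knockout (1.89 ± 0.40, adjusted p = 0.0157) and Vnn1 lower in the ligated knockout (-1.67 ± 0.52, adjusted p = 0.0496), each the only one called. Acot1 did not pass under TPM (adjusted p = 0.0829), nor Vnn1 without BDL_KO_2359 and BDL_KO_2248 (adjusted p = 0.319). Of 15 clock genes above the filter, the sham knockout had 3 higher, Cry1 (1.51), Nfil3 (1.18) and Clock (0.42), and 1 lower, Nr1d2 (-1.70), of which only Nr1d2 passed under TPM. In the ligated comparison of genotypes none passed the limma test or voom, with 2 at an unadjusted p under 0.05, beside 24.6% of all genes. Ligation raised 1 and lowered 2 in wild type and raised 4 and lowered 3 in knockout, where without BDL_KO_2359 and BDL_KO_2248 it raised none and lowered 4.

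Genes with the profile closest to that of Acmsd over the 20 libraries were ranked by the root mean square distance between standardised log2 profiles. The ranking covered 10487 protein-coding genes averaging 1 FPKM or more in some group, and other gene types were left out. The closest were Paip2b (0.597), Plod1 (0.610), Dact2 (0.612), Pglyrp2 (0.688) and Tmem120a (0.696), none of them an enzyme of this pathway. Pglyrp2, a peptidoglycan amidase secreted by liver, averaged 127 ± 11.7 FPKM in BDL_KO, 98.2 ± 10.8 in BDL_Wt, 81.1 ± 12.8 in Sham_KO and 69.7 ± 7.57 FPKM in Sham_Wt livers. Plod1, a collagen lysyl hydroxylase, averaged 11.5 ± 1.38 FPKM in BDL_KO, 9.61 ± 1.08 in BDL_Wt, 9.54 ± 1.31 in Sham_KO and 8.10 ± 0.753 FPKM in Sham_Wt livers. Pathway members lay farther from Acmsd, at distances of 1.23 (Qprt, rank 2388) to 1.59 (Nadsyn1, rank 8617).

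The deposited values had been brought to a common median ratio between libraries, and other scalings moved all genes together. Under TPM, where 16885 genes were above the filter, the median difference of all genes between ligated knockout and ligated wild type was -0.24, and relative to that median Acmsd differed by 0.97, Haao by 0.90 and Afmid by 0.96. The TPM median was 0.27 for ligation in wild type and 0.15 for ligation in knockout. Relative to these medians, Haao differed by -1.47 in wild type and -0.60 in knockout, and Nampt by 1.12 in wild type and 1.27 in knockout. TPM divides all values of a library by the same number. Values relative to the median therefore lie near those of the deposited scale by construction and are no check of the scaling.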

How the data were processed

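Polyadenylated RNA of mouse liver was sequenced in 20 libraries, in 4 groups of 5 taken from the library titles. The authors deposited 1 table of FPKM values, per the file headers. The tools named in the submitters' processing notes are HISAT2 2.0.5, featureCounts 1.5.0-p3, DESeq2 1.20.0, CASAVA 1.8 and fastp, with GRCm38 and mm10 as builds and no annotation release. With GENCODE M21 exonic lengths, 98.1 to 98.5% of low values were whole multiples of 1 fragment (tolerance 0.02), which gave the depth of 14.9 to 20.9 M fragments. The deposited values had a median ratio of 1.01 in all libraries.

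Genes that reached 0.5 FPKM in 5 or more libraries were fitted as log2(FPKM + 0.5) with limma 3.58.1 (R 4.3.3), 1 mean per group, with trend and robust moderation, and tested on simulated data. P-values were adjusted over all genes. Permutation tests used scipy 1.17.1. The members and lists were chosen with earlier results of these data known. Named from each list were up to 4 called genes per comparison, or those most abundant. Nearest profiles used root mean square distance among protein-coding genes. Alternatives were pseudocounts of 0.1 and 1, other filters, TPM, total fragments, quantile normalization, voom, array weights, fits of 2 groups, library type, and leaving out libraries. Fits within each library type, and the gene lists under other settings, were chosen after seeing the data.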

Additional observations from a re-analysis of the deposited data

Results flagged for a closer look

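Of 40 groups of 5 libraries examined, 5 held a library whose gap to its nearest neighbour was over 0.71 of the range of the group, and chance gives about 1 in 20. Qprt in BDL_KO_2359 was the highest of its group at 113 FPKM (gap 0.806 of the range), and without that library the other 4 ran from 77.9 to 84.6 FPKM. Nampt in BDL_KO_2248 was the highest at 58.9 FPKM (0.724), with the other 4 at 10.9 to 24.2 FPKM. Ido2 in Sham_KO_2350 was the highest at 33.0 FPKM (0.744). Tdo2 in Sham_KO_2352 was the lowest at 277 FPKM (0.735). Qprt in Sham_Wt_2223 was the highest at 99.3 FPKM (0.746).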

How the results depend on the processing

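Counts of members that passed moved as follows. For ligation in wild type, 6 of 9 became 3 under TPM and 1 within Xist libraries, and the 5011 genes called overall became 3126 within Y-linked and 911 within Xist libraries. For ligation in knockout, 5 of 9 became 3 under TPM, 2 with only the 2 groups fitted, 1 within Y-linked and 1 within Xist libraries, and 3534 genes became 1694, 1072 and 550 in the last 3 of these. With array weights, and also without BDL_KO_2359 and BDL_KO_2248, 6 members were lower and 1 higher for ligation in knockout. Under each of these settings 7 were lower and 1 higher for ligation in wild type. For the sham knockout, 0 of 9 became 1 with array weights (Kynu), 1 with only the 2 groups fitted (Nampt) and 1 without BDL_KO_2359 and BDL_KO_2248 (Kynu). The 418 genes called there became 208 without a filter, 190 under TPM, 187 scaled to total fragments, 1234 with array weights, 821 with only the 2 groups fitted, 1041 without those 2 libraries, 0 within Y-linked and 7 within Xist libraries. For the ligated knockout, 3 of 10 became 1 with only the 2 groups fitted (Acmsd), 6 with library type as covariate, 1 within Y-linked and 0 within Xist libraries, and 1241 genes became 283 with only the 2 groups fitted, 308 within Y-linked and 8 within Xist libraries. For the interaction, 0 of 9 became 1 under quantile normalization (Haao at 0.73, adjusted p = 0.0336), and 53 genes became 9 without a filter, 9 under TPM, 21 scaled to total fragments, 23 with voom, 142 with array weights, 178 without the 2 libraries, 2 within Y-linked and 0 within Xist libraries. Fits within a library type hold 2 or 3 libraries a group. For ligation, the member called within Xist libraries was Haao in wild type and Qprt in knockout. Within Y-linked libraries it was Kmo in knockout.

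Leaving out 1 library at a time gave 6 to 8 members and 4279 to 5466 genes for ligation in wild type, 3 to 6 and 2614 to 4096 for ligation in knockout, 0 to 1 and 155 to 659 for the sham knockout, 2 to 5 and 618 to 2061 for the ligated knockout, and 0 and 8 to 151 for the interaction. Acmsd after ligation stayed at 0.86 to 1.08 (adjusted p at most 0.0180) and the Acmsd minus Qprt difference at 0.54 to 0.63. The share of calls that were higher depended on the scaling: 50.8% in the deposited scale, 82.8% under TPM and 71.0% by total fragments for ligation in wild type, 48.8%, 77.0% and 57.6% for ligation in knockout, 44.0%, 10.5% and 24.1% for the sham knockout, 39.2%, 6.96% and 11.5% for the ligated knockout, and 41.5%, 55.6% and 38.1% for the interaction.

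Under TPM the differences that changed sign were Kmo (0.00374) and Qprt (0.116) for ligation in wild type, Nadsyn1 (0.161) for ligation in knockout, Haao (-0.0878) for the sham knockout, and Kmo (-0.0905) and Nadsyn1 (-0.0828) for the ligated knockout. By total fragments they were Nadsyn1 for ligation in knockout (0.0412), Haao for the sham knockout (-0.0243), and Kmo (-0.0185) and Nadsyn1 (-0.0110) for the ligated knockout. Quantile normalization turned Qprt for ligation in wild type (0.183), Nadsyn1 for ligation in knockout (0.00576), Haao for the sham knockout (-0.0644) and Kmo for the ligated knockout (-0.0196). Nadsyn1 for ligation in knockout also turned with array weights (0.0353), library type as covariate (0.000244), within Xist libraries (0.112) and without BDL_KO_2359 and BDL_KO_2248 (0.0269). Tdo2 for the ligated knockout turned without those 2 libraries (-0.0667), Haao for the sham knockout within Xist libraries (-0.140) and Qprt there within Y-linked libraries (0.000614). With 1 library left out, Nadsyn1 for ligation in knockout ran from -0.0686 to 0.0313, Haao for the sham knockout from -0.0402 to 0.138 and Qprt there from -0.253 to 0.0102. The cause was not tested. Single members were tallied over settings other than leaving out 1 library, with the interaction counted for Kmo, Haao and Qprt only. There 552 values stayed the same, 25 newly passed, 43 no longer passed and 21 changed sign. The same meant an unchanged direction and side of the threshold, or, for untested Acmsd values, a move within the spread. Another 1, Acmsd for ligation in wild type under TPM (1.44), moved by more than the spread. No paired analysis was possible because each library has its own title number and groups share none.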
